A study of Mus musculus with 8 samples.

Results

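The matrix metalloproteinases (MMPs) and their tissue inhibitors (TIMPs) were compared between Lats2-/- and Lats2+/+ mouse embryonic fibroblasts. The group held 10 genes, Mmp2, Mmp3, Mmp9, Mmp10, Mmp11, Mmp13, Mmp14, Timp1, Timp2 and Timp3, out of 27745 gene names on the array, and its probes were found by gene name, the genes having been chosen with earlier results of these data known. Of the 10 genes, 9 had at least 1 probe above the filter on dim signals, as had 14791 gene names in all. Mmp9 was the gene without one. The 10 genes had 13 probes, of which 11 were kept for testing.

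Both genotypes were C57BL/6J embryonic fibroblasts grown in DMEM with inactivated fetal bovine serum and antibiotics, and neither was treated. Lats2-/- cells came from embryos deficient in Lats2, a kinase of the Hippo pathway, and the Lats2+/+ cells from wild-type littermates. Each of 3 litters gave 1 RNA extract per genotype, named in the labels as clones 112-C (Lats2-/-) and 112-K (Lats2+/+), 116-D and 116-H, and 121-E and 121-C, in the same order. The labels do not say whether an extract came from more than 1 culture, and the age of the embryos was not given in the sources used here. Both extracts of a litter were hybridised together on 2-colour Agilent arrays, with the dyes swapped between arrays, and litters 112, 116 and 121 had 2, 2 and 4 of them. Litters 112 and 116 lay on slide 1 and litter 121 lay on slide 2, so that slide and litter 121 cannot be told apart. The litter was the replicate, with n = 3.

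MMPs are zinc-dependent proteases that are made as inactive precursors and cut collagens, proteoglycans and other components of the extracellular matrix. Fibroblasts are a main source of them, and several MMP genes are switched on by growth factors and inflammatory cytokines through the transcription factor AP-1, a dimer of FOS and JUN proteins. TIMPs are small secreted proteins that block the active site of MMPs, and TIMP3 also blocks several ADAM and ADAMTS proteases.

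Several MMP genes lie side by side on mouse chromosome 9, and the promoters of 3 of the members in that cluster, Mmp3, Mmp10 and Mmp13, are shown because they held the same motifs. Promoter sequences of RefSeq (build GRCm38.p6, 250 bases before to 50 bases after the annotated start) were matched by symbol for 8 of the 10 genes. Mmp2 and Mmp9 were not matched. The AP-1 motif (TGAGTCA, or TGACTCA on the other strand) was in the promoters of these 3 genes and of no other matched member, against 5.2% of 32851 promoters of the same length. The same promoters also held the TATA motif (TATAAA or TTTATA), which was in 13.6% of promoters, and 0.941% of promoters held both. The TEAD motif (CATTCCA or TGGAATG) was in 0 of the 8 promoters and in 4.29% of all. The 100 bases before each start follow, 5′ to 3′, with the AP-1 and TATA motifs in capitals, and Mmp1a, the interstitial collagenase between Mmp3 and Mmp10, is added for comparison though it is not among the 10 genes. The promoter of Mmp8, a neighbour that was above background on 2 arrays, held the TATA motif and no AP-1 motif, as did that of Mmp20. Mmp7 and Mmp12 in the same cluster held both motifs in 1 of their 2 listed promoters.
Mmp13, chr9:7272414-7272513, plus strand: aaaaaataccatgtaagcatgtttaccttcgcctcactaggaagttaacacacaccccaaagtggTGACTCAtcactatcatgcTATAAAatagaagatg
Mmp3, chr9:7445722-7445821, plus strand: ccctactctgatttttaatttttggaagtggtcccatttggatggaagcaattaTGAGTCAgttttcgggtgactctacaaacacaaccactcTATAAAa
Mmp1a, chr9:7464041-7464140, plus strand: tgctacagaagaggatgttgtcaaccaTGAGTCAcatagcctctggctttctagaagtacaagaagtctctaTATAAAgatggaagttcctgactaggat
Mmp10, chr9:7502242-7502341, plus strand: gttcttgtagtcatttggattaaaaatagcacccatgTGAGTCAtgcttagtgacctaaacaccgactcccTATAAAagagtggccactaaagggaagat
Counted from the annotated start, the AP-1 motif began at position -35 in Mmp13, -46 in Mmp3, -73 in Mmp1a and -63 in Mmp10, and the TATA motif at -16, -7, -28 and -29 in the same order. The motifs did not overlap. A match is a run of letters, not a measured binding site.

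The array intensities were of similar depth in all hybridisations, with a median intensity of 60.9 to 68.2 in green and 83.1 to 94.2 in red, and with 52.9% to 61.3% of gene probes well above background. The targeted gene was lower in Lats2-/- cells by its most upstream probe (-1.33, -1.05 and -0.56 on the log2 scale, with the litters always in the order 112, 116, 121). The 3 probes toward the 3′ end of Lats2 ran the other way in litter 121, with ratios of 0.80 to 1.17 there and -0.70 to -0.18 in the other litters, and which exons the allele lacks was not given in the sources used here. Values without litter 121 are therefore given beside the results for the members, where "Lats2-/-" in litter 121 stands for the extract labelled so. Ctgf, a target of the Hippo effectors YAP and TAZ, was higher in the 3 litters (1.55, 1.18 and 1.67; unadjusted p = 6.24e-04 and adjusted p = 0.634 in limma). The kept fibroblast markers numbered 9 of 9, and 8 of them were above background in all 16 channels. The log2 of their summed signal was 17.92 to 19.07 in Lats2-/- and 18.50 to 19.24 in Lats2+/+ extracts, but single markers shifted within litters: 5 of 9 were at least 2-fold higher and 1 at least 2-fold lower in Lats2-/- cells in litter 116, and 0 and 5 of 9 were so in litter 121. The largest shifts in litter 121 were 31.1-fold lower for Pdgfra (above background on 2 of the 4 Lats2-/- arrays there), 12.7-fold for Thy1, 12.2-fold for S100a4 and 10.68-fold for Col3a1. Of 5 cartilage and bone markers, 4 were kept. The log2 of the summed signal of all 5 was 10.98 to 11.31 in Lats2-/- and 9.92 to 11.90 in Lats2+/+ extracts. Sox9 had log2 ratios of 0.71, 1.41 and -3.71 and Col2a1 of 0.29, 2.53 and -0.40. Among markers of other cells, Ptprc, Emr1, Pecam1, Cdh5 and Tacstd1 were above background on no array, and the endothelial Tek was in 15 of 16 channels. The epithelial Cdh1 and the endothelial Kdr were above background on the 4 Lats2-/- arrays of litter 121 alone, with Cdh1 at least 2.08-fold and Kdr at least 1.41-fold above the Lats2+/+ extract, and the epithelial Krt8 and Krt18 were so in the Lats2+/+ extract of litter 116 alone.

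Among the MMP and TIMP genes, Mmp3 was lower and Timp3 and Mmp11 were higher in Lats2-/- cells in all 3 litters, and the other genes above background had no single sign. A single sign in all 3 litters was thus seen for 3 of the 11 member probes, beside 29.7% of all kept probes. Mmp3 encodes stromelysin-1, Timp3 the matrix-bound inhibitor and Mmp11 stromelysin-3. The mean difference was 8.62-fold for Mmp3, 2.22-fold for Timp3 and 1.41-fold for Mmp11. No member passed the adjusted threshold in limma, and neither did any other probe: adjusted p was under 0.05 for 0 of 11 member probes and 0% of the 22642 kept probes. At an unadjusted p under 0.05, limma gave 2 of 11 member probes higher (Timp3 and Mmp11) against 3.56% of kept probes, and 1 of 11 lower (Mmp3) against 3.29%. The methods' t-test gave 0 of the 11 at that level, with unadjusted p of 0.0583 for Timp3, 0.0877 for Mmp11 and 0.170 for Mmp3. With a change of at least 2-fold required as well, 1 member probe was higher (Timp3; 0.636% of kept probes) and 1 was lower (Mmp3; 0.199%).

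The agreement of the litters was limited. A change of at least 2-fold in 1 direction in each litter was seen for 0 of 11 member probes and for 0.243% of kept probes. The log2 signals of the 3 Lats2-/- and the 3 Lats2+/+ extracts overlapped for every kept member probe, and they were apart for 6.13% of kept probes. Within single litters, members often differed by at least 2-fold: 2 of 11 in litter 112 (3.77% of kept probes), 5 of 11 in litter 116 (7.71%) and 5 of 11 in litter 121 (6.09%). These were Mmp2 and the brighter of the 2 Mmp14 probes in litter 112, Mmp2, Mmp3, Mmp13, the brighter Mmp14 probe and Timp3 in litter 116, and Mmp3, Mmp10, Mmp13, the second Mmp14 probe and Timp3 in litter 121. Across all kept probes the ratios of the litters correlated weakly, with a Pearson's r over probes of 0.13 for litters 112 and 116, 0.06 for 112 with 121 and -0.0013 for 116 with 121 (probes are not independent replicates).

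**Figure D1:**
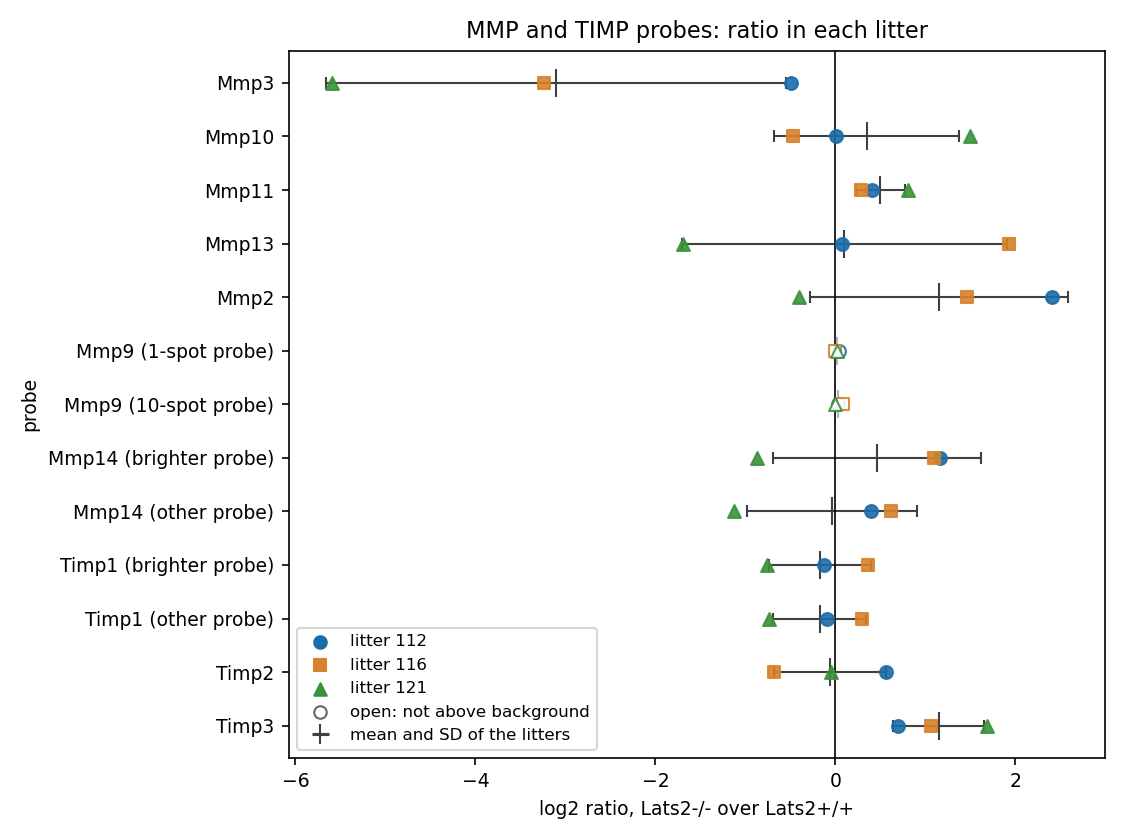
Log2 ratio of Lats2-/- over Lats2+/+ (x axis) for the 13 MMP and TIMP probes (y axis), with 1 point per litter and the mean ± SD of the 3 litters as a bar. Mmp3 lay below 0 and Mmp11 and Timp3 above 0 in every litter, and the other probes above background lay on both sides.

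Mmp3, stromelysin-1, degrades proteoglycans and fibronectin and activates other MMP precursors. Its log2 signals (probe at chr9:7455751-7455810 in mm8) were 8.60, 11.69 and 7.86 in Lats2-/- and 9.09, 14.93 and 13.45 in Lats2+/+ extracts of litters 112, 116 and 121. The wild-type extracts of litters 116 and 121 were far above both extracts of litter 112, and the Lats2-/- extract of litter 121 was the lowest of all. The difference within a litter was 1.40-fold, 9.47-fold and 48.3-fold lower in Lats2-/- cells in the same order, on 8 of 8 arrays in all. The mean log2 ratio was -3.11 ± 2.56 (SD, n = 3 litters; 95% interval -6.13 to -0.08; unadjusted p = 0.0464 and adjusted p = 0.711 in limma). The interval is that of limma, which draws the variance of a probe toward that of all kept probes. The methods' t-test on the same 3 litter ratios gave an unadjusted p of 0.170. Without litter 121 the mean was -1.87, with an unadjusted p of 0.101 in limma, without litter 116 it was -3.04 with a p of 0.144, and without litter 112 it was -4.42 with a p of 0.0101. The spread between litters was larger than for 99.5% of kept probes. Of the fibroblast markers most reduced in litter 121, where the difference in Mmp3 was largest, Thy1, Col3a1 and Pdgfra had log2 ratios of 2.05, 3.70 and 0.13 in litter 116, and S100a4 had -0.97. Their part in the result was not tested. In bulk RNA, fewer cells that express a gene and less of its RNA per cell cannot be told apart.

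Mmp3 also varied most among the members over the 6 extracts, with an SD of 2.87 on the log2 scale. The genes with the most similar pattern over the 6 extracts were Gli3, a transcription factor of Hedgehog signalling (Pearson's r of 0.989), Scyl3 (0.987), Ank, a pyrophosphate transporter (0.987), Eprs, a tRNA synthetase (0.984), and Tcfap2c, a transcription factor (0.977). These r values are a description over 6 extracts that share arrays in pairs, and 31 probes had an r above 0.95. Their own ranges were narrower: Gli3 lay between 9.84 and 10.90, and Ank between 11.74 and 14.56. Tcfap2c lay between 6.01 and 6.91, and in 3 of the 6 extracts its signal (6.01 to 6.06) was within the range of the Mmp9 probes, which were at background.

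Mmp10, stromelysin-2, is the closest relative of Mmp3 in the group and cuts similar substrates. Its log2 signals (chr9:7510011-7510070) were 6.40, 7.81 and 9.54 in Lats2-/- and 6.39, 8.27 and 8.04 in Lats2+/+ extracts. It did not follow Mmp3: the highest extract was Lats2-/- of litter 121, where Mmp3 was lowest. In litter 112 it was well above background on 1 of 2 arrays in each genotype. The litter ratios of 0.01, -0.47 and 1.5 gave a mean of 0.35 ± 1.03 (SD, n = 3 litters; 95% interval -0.89 to 1.58; adjusted p = 0.880 in limma), which turned to -0.23 without litter 121.

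Mmp13, collagenase-3, cleaves fibrillar collagen. It gave log2 signals (chr9:7282762-7282821) of 6.45, 9.27 and 6.44 in Lats2-/- and 6.38, 7.35 and 8.13 in Lats2+/+ extracts. It was near background in litter 112, where it was detected on 1 of 2 arrays per genotype. It was 3.80-fold higher in Lats2-/- cells in litter 116 and 3.23-fold lower in litter 121. The Lats2-/- signal of litter 121 was as low as those of litter 112, though detected on 4 of 4 arrays. Of the 11 member probes, that of Mmp13 was the 1 that differed by 2-fold or more in opposite directions in separate litters, as 1.83% of kept probes did. For Mmp14, 1 probe was that much higher in litters 112 and 116 and the other probe that much lower in litter 121. The mean of 0.10 ± 1.81 (SD, n = 3 litters; 95% interval -2.05 to 2.25; adjusted p = 0.985 in limma) averaged litters of opposite sign, and it was 0.997 without litter 121 and -0.81 without litter 116. Of the 9 fibroblast markers, 7 were higher in litter 116 and 8 were lower in litter 121, with medians of 1.84 and -1.13 on the log2 scale. Col3a1 was at 3.70 and -3.42 in these litters and Thy1 at 2.05 and -3.66, whereas Vim was at -1.19 and -0.07, S100a4 at -0.97 and -3.61 and Fn1 at 2.40 and 0.07. Sox9 was at 1.41 and -3.71 in the same litters. Their part in the result was not tested.

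Along the chromosome 9 cluster, the neighbours thus ran apart. The order of the probes in mm8 was Mmp13, Mmp12, Mmp3, Mmp1a, Mmp10, Mmp8, Mmp20 and Mmp7. Mmp1a was named after its values were seen. No array detected it above background in Lats2-/- cells, while wild-type cells of litters 116 and 121 were above it, so that it was at least 2.37-fold lower in litter 116 and at least 3.17-fold lower in litter 121 by its brighter probe. Its second probe gave at least 1.56-fold and 2.08-fold lower in the same litters. In litter 112 both extracts were at background. Of the 3 members and Mmp1a with an AP-1 and a TATA motif in the promoters printed above, Mmp3 and Mmp1a were lower in litters 116 and 121, Mmp10 was slightly lower in litter 116 (-0.47) and higher in litter 121, and Mmp13 was higher in litter 116 and lower in litter 121. Mmp12 and Mmp20 were above background on no array.

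**Figure D2:**
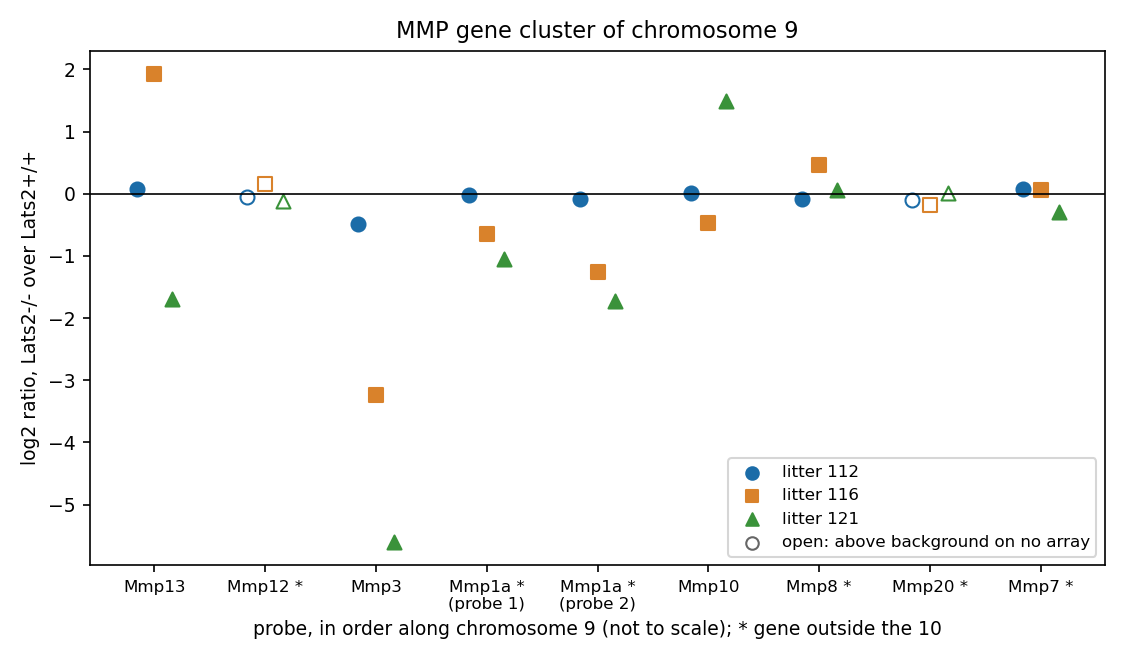
Log2 ratio of Lats2-/- over Lats2+/+ (y axis) in each litter for the MMP probes of chromosome 9 in their order (x axis, not to scale), with open symbols for probes above background on no array. Mmp3 and Mmp1a lay lower in litters 116 and 121, while Mmp13 and Mmp10 lay on both sides of 0.

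The gelatinases MMP2 and MMP9 cut denatured collagen and the collagen of basement membranes. Mmp2 gave log2 signals (chr8:95742069-95742128) of 11.20, 13.20 and 13.06 in Lats2-/- and 8.80, 11.75 and 13.47 in Lats2+/+ extracts. The lowest was the wild-type extract of litter 112 and the highest that of litter 121. Lats2-/- cells were 5.29-fold higher in litter 112, 2.75-fold higher in litter 116 and 1.33-fold lower in litter 121. The mean log2 ratio was 1.15 ± 1.43 (SD, n = 3 litters; 95% interval -0.56 to 2.86; unadjusted p = 0.133 and adjusted p = 0.752 in limma), and without litter 121 it was 1.93 (unadjusted p = 0.00769, adjusted p = 0.733). Mmp9 was not well above background on any of the 8 arrays in either genotype by either of its 2 probes, with log2 signals of 5.90 to 6.09, so that its ratios compare background values and are not read.

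Mmp14 encodes the membrane-type protease MT1-MMP, which activates the MMP2 precursor at the cell surface with TIMP2 as a bridge. The brighter of its 2 probes (chr14:53395337-53395396) gave log2 signals of 15.38, 14.97 and 14.60 in Lats2-/- and 14.22, 13.87 and 15.47 in Lats2+/+ extracts. As for Mmp2, Lats2-/- cells were higher in litters 112 and 116 and lower in litter 121, by 1.16, 1.1 and -0.87 on the log2 scale. The second probe (chr14:53394143-53394202) had the same signs with smaller positive values, 0.39, 0.61 and -1.12. The means were 0.46 ± 1.15 and -0.04 ± 0.95 (SD, n = 3 litters; 95% intervals -0.92 to 1.85 and -1.19 to 1.11; adjusted p = 0.855 and 0.988 in limma). Without litter 121 they were 1.13 and 0.50, with unadjusted p of 0.00435 and 0.0497 and an adjusted p of 0.733 for each.

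Mmp11, stromelysin-3, is activated inside the cell by furin and is known from stromal fibroblasts. Its log2 signals (chr10:75366997-75367056) were 12.56, 11.56 and 12.18 in Lats2-/- and 12.15, 11.27 and 11.37 in Lats2+/+ extracts. It was higher in the Lats2-/- extract of each litter, on 8 of 8 arrays, by 1.33-fold, 1.22-fold and 1.75-fold. The log2 ratio was larger with Lats2-/- in Cy5 than in Cy3, by 0.27, 0.28 and 0.32, beside litter ratios of 0.41, 0.28 and 0.81. Levels differed between litters by more than between genotypes, so that the wild-type extract of litter 112 was above the Lats2-/- extract of litter 116. The mean log2 ratio was 0.50 ± 0.28 (SD, n = 3 litters; 95% interval 0.08 to 0.92; unadjusted p = 0.0300 and adjusted p = 0.711 in limma). Without litter 116 it was 0.61, with an unadjusted p of 0.0418 in limma. Without litter 121 it was 0.35, with a p of 0.104, and without litter 112 it was 0.55, with a p of 0.0870. The p was also above 0.05 with the processed signals of the scanner software (0.0666) and with median centring in place of loess (0.0517).

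**Figure D3:**
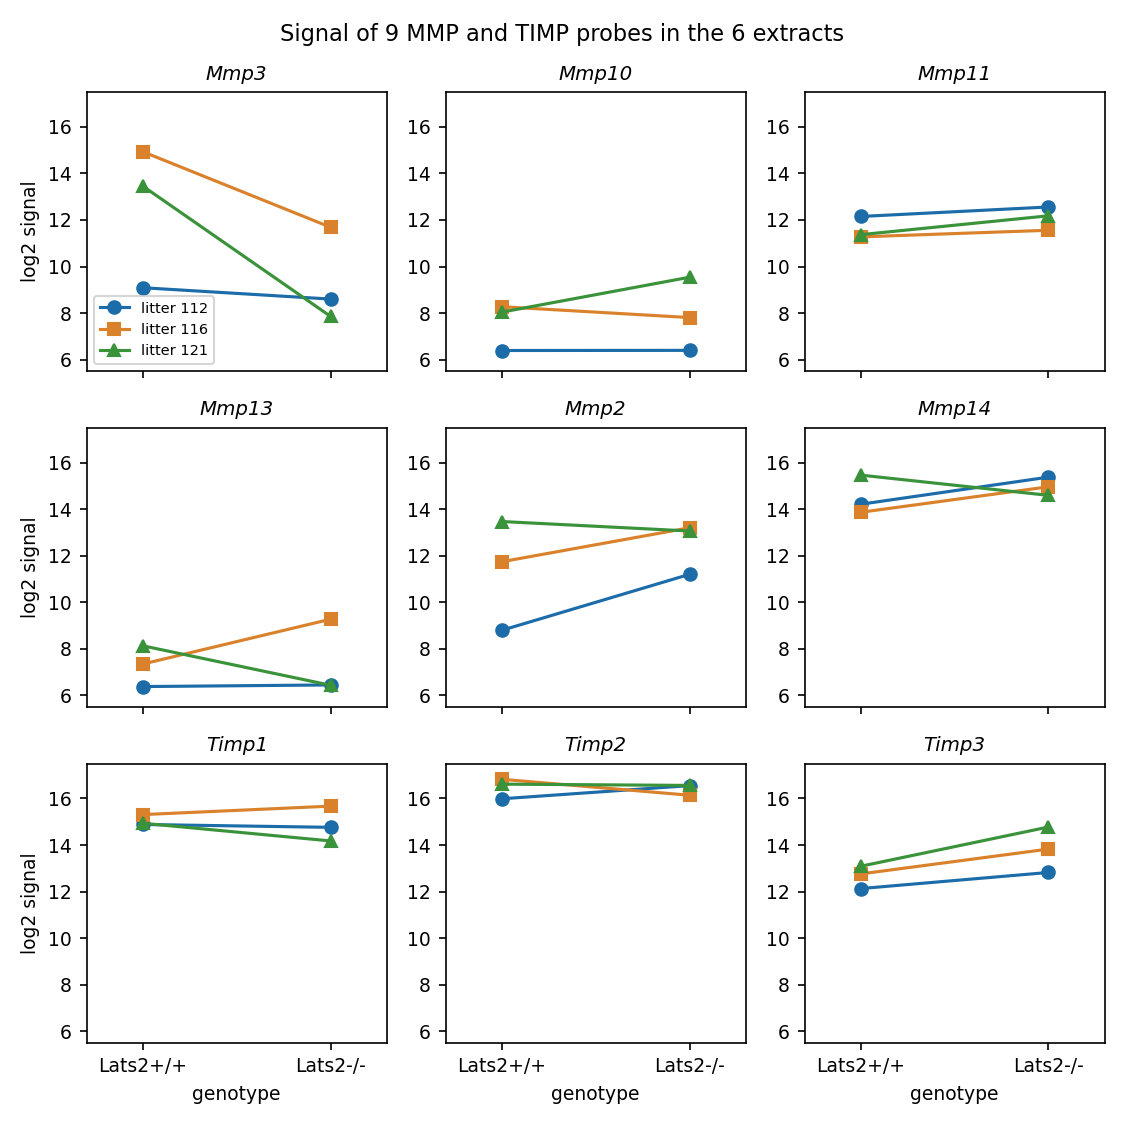
Log2 signal (y axis) of the brightest kept probe of 9 MMP and TIMP genes in Lats2+/+ and Lats2-/- extracts (x axis), with a line joining the extracts of a litter. The lines of Mmp3 all went down and those of Mmp11 and Timp3 all went up, and the litters differed in level by up to 5.84 on the log2 scale within a genotype (Mmp3 in Lats2+/+).

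Among the inhibitors, Timp3, which binds to the extracellular matrix, was the member with the lowest p. Its log2 signals (chr10:85778750-85778809) were 12.82, 13.83 and 14.77 in Lats2-/- and 12.13, 12.76 and 13.09 in Lats2+/+ extracts. The order of the litters was the same in both genotypes, and the Lats2-/- extract was higher in each by 1.61-fold, 2.09-fold and 3.22-fold, on 8 of 8 arrays. The Lats2-/- extract of litter 112 still lay below the wild-type extract of litter 121. The mean log2 ratio was 1.15 ± 0.50 (SD, n = 3 litters; 95% interval 0.50 to 1.80; unadjusted p = 0.00842 and adjusted p = 0.711 in limma). It was 0.88 without litter 121, 1.19 without litter 116 and 1.38 without litter 112, with unadjusted p of 0.0161, 0.0372 and 0.0115.

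Timp1, a soluble inhibitor induced by growth factors, showed no common direction. Its brighter probe (chrX:20031508-20031566) gave log2 signals of 14.76, 15.67 and 14.18 in Lats2-/- and 14.88, 15.31 and 14.94 in Lats2+/+ extracts. The second probe (chrX:20029738-20029797) gave litter ratios of -0.09, 0.29 and -0.73, close to the -0.12, 0.36 and -0.76 of the first. The mean was -0.17 ± 0.56 by the brighter probe (SD, n = 3 litters; 95% interval -0.89 to 0.54; adjusted p = 0.904 in limma) and -0.18 ± 0.52 by the second (adjusted p = 0.891). Without litter 121 they were 0.12 and 0.10.

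Timp2, the inhibitor that takes part in MMP2 activation, had log2 signals (chr11:118117922-118117981) of 16.55, 16.14 and 16.56 in Lats2-/- and 15.99, 16.82 and 16.62 in Lats2+/+ extracts. It varied least of the 9 genes over the 6 extracts, with an SD of 0.32. The litter ratios of 0.57, -0.68 and -0.05 averaged -0.06 ± 0.62 (SD, n = 3 litters; 95% interval -0.84 to 0.73; adjusted p = 0.976 in limma). It was the same, -0.06, without litter 121. The means of the dye orientations of this bright probe differed by 0.76, 0.74 and 0.56 in litters 112, 116 and 121, more than the size of the ratio in every litter. For Mmp3, Timp3, Mmp2 and Mmp13, arrays of a litter differed by 0.25 at most.

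**Figure D4:**
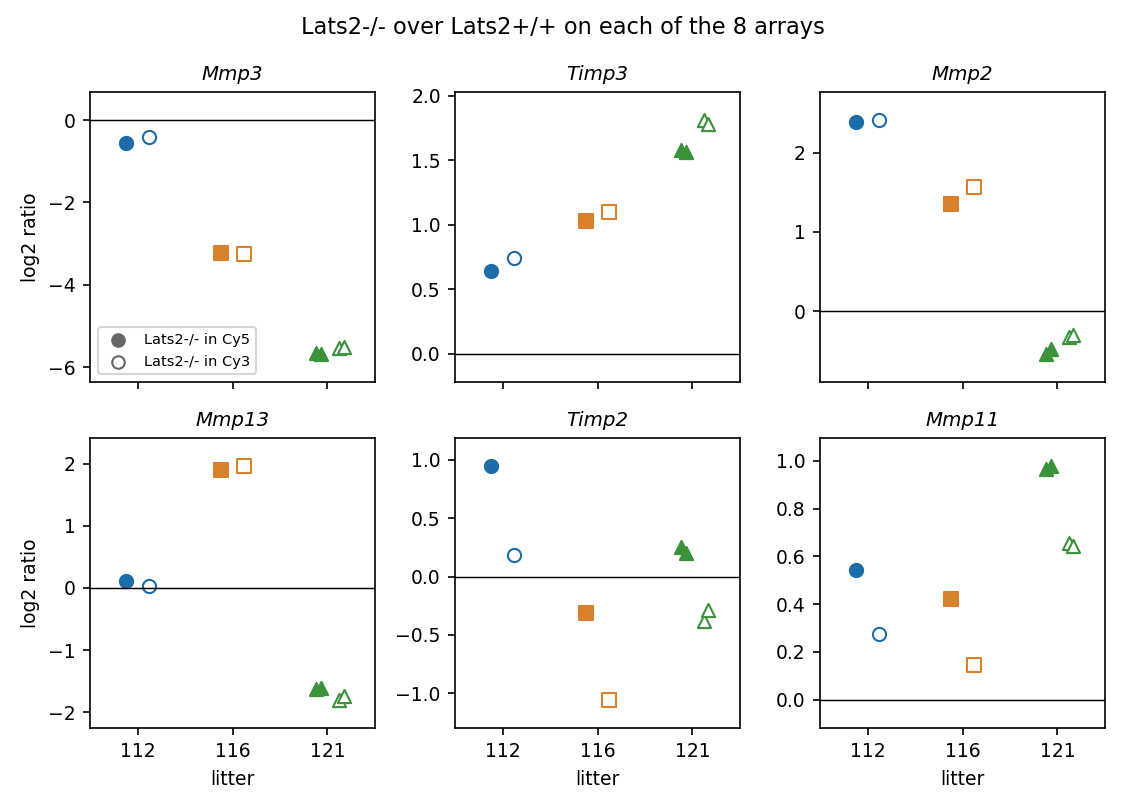
Log2 ratio of Lats2-/- over Lats2+/+ (y axis, own scale in each panel) on every array, by litter (x axis) and dye orientation, for 6 of the genes. The arrays of a litter lay close together for Mmp3, Timp3, Mmp2 and Mmp13. The means of the dye orientations stood apart by 0.56 or more in each litter for Timp2, and by 0.27 to 0.32 for Mmp11.

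Other genes of the same system were described from lists. Of 17 further MMP and TIMP genes, 15 were matched on the array (Mmp1b and Mmp27 were not matched here) and 8 had a kept probe. Of these 8, 0 were at an unadjusted p under 0.05 in either direction in limma, beside 3.56% of kept probes higher and 3.29% lower. Their median log2 ratio was 0.03. The 10 members had 9 genes with a kept probe, 2 higher and 1 lower at that level, with a median of 0.35 over 1 probe per gene. This median was the value of Mmp10, which turned to -0.23 without litter 121. The median of all kept probes, not taken as 1 probe per gene, was 0.0058.

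Of 7 listed ADAM and ADAMTS proteases, 7 were kept, with a median log2 ratio of 0.26 (5 above and 2 below 0), and 1 was higher and 0 lower at an unadjusted p under 0.05, beside 3.56% and 3.29% of kept probes. Adamts5, an aggrecanase, was more than 2-fold higher in each litter by its brighter probe (2.0, 1.16 and 3.23; unadjusted p = 0.00972, adjusted p = 0.711 in limma), and its second probe gave 0.91, 0.54 and 2.97. Timp3 was likewise higher in each litter. Of 14 transcription factors known to induce MMP genes, all 14 were kept, with a median of 0.07, and 4 were higher and 0 lower at an unadjusted p under 0.05, beside 3.56% and 3.29% of kept probes. The AP-1 genes Fos (5.43, 2.19 and 1.24; unadjusted p = 0.0349) and Junb (2.48, 2.17 and 1.57; unadjusted p = 7.92e-04) were more than 2-fold higher in each litter, with adjusted p of 0.711 and 0.634 in limma. The other AP-1 genes of the list were not past that level in limma. Jun was at 0.52, -1.35 and -0.62, Fosl1 at 0.76, -1.72 and -1.28, and Fosl2 at 0.55, -0.54 and -0.15 by its brighter probe. Fosb was at 2.33, -0.03 and -0.01 and Jund1 at 0.71, 0.00 and 0.87. Ets2 (0.31, 0.25 and 0.61) and Nfkb1 (0.23, 0.37 and 0.66) differed less. Of 9 cytokines and growth factors that induce MMP genes, 5 were kept, with a median of 0.03. Of these 5, 0 were at an unadjusted p under 0.05 in either direction in limma, beside 3.56% and 3.29% of kept probes.

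The leukocyte markers were not uniform. Of 7 such genes, 4 were kept. The log2 of the summed signal of all 7 was 9.71 to 11.95 in Lats2-/- and 9.84 to 11.18 in Lats2+/+ extracts. Cd14 was lower in each litter (-0.60, -1.64 and -0.74; unadjusted p = 0.0192, adjusted p = 0.711 in limma), while Lyzs was higher in each (0.05, 0.95 and 3.40), by 10.6-fold in litter 121. The other kept markers, Cd68 and Csf1r, lay between -0.32 and 0.36, and Ptprc and Emr1 were above background on no array. The part of these genes in the results for Mmp3 and Timp3 was not tested.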

How the data were processed

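Transcripts were measured on 8 arrays of a 2-colour Agilent whole mouse genome design, which the authors extracted in Agilent Feature Extraction (10.7.3.1 by the file headers, 10.5.1.1 by the submitters' processing notes). The deposited scanner files give spot and background intensity on a linear scale, not normalized, and a log10 ratio of red over green that the authors' software had background-subtracted and dye-normalized. The deposited value table holds the same log10 ratios (largest difference 0.0050, column medians 0), with the sign turned to Lats2-/- over Lats2+/+. Probe coordinates are those of the files (mm8).

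Intensities were background corrected with normexp (offset 50) and normalized by loess within arrays in limma 3.58.1 under R 4.3.3, leaving out 860 outlier spots. Repeat spots, then arrays of a litter, which hold the same 2 extracts, were averaged to 1 log2 ratio per litter, which pairs the genotypes. Arrays of a litter correlated with r of 0.917 to 0.990. A probe was kept (22642 of 41174) if well above background in at least 2 of 3 extracts of a genotype. Litter ratios were tested against 0 with lmFit and eBayes, two-sided, with Benjamini-Hochberg adjustment over all kept probes. For the level in each extract, Aquantile normalization between arrays followed loess, which leaves ratios as they are. At least N-fold values set the brighter extract against the higher of the lowest signal well above background and the dim probe's own. With nothing known on separate cultures, p-values measure only the spread between these extracts, and the number of arrays limits the precision.

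All probes of the members are named, a gene being represented by its brightest kept probe. Genes of the other lists are named at an unadjusted p under 0.05 or at least 2-fold in each litter, and 5 genes for the pattern of the most variable member. The members, lists and tests were chosen with earlier results of these data known. The study's methods used a t-test (p under 0.05) and a 2-fold limit, and that test was an alternative, beside other background, normalization, filter, block and leave-one-out settings. The fit was tested on simulated data. Protein sequences were not analysed here. The result of 1 further list is not reported here.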

Additional observations from a re-analysis of the deposited data

How the results depend on the processing

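Mmp3, Mmp11, Timp3, Mmp2 and the brighter Mmp14 probe kept their direction under the 10 alternatives that moved their means (the quantile normalization between arrays was chosen after seeing the data; the filters, Aquantile, the fit with no replicate block and the methods' t-test leave a mean as it is), with means of -4.42 to -1.87, 0.35 to 0.61, 0.88 to 1.38, 0.52 to 1.93 and 0.11 to 1.13. The number of member probes with an adjusted p under 0.05 was 0 in the report and under most alternatives. It was 2 with litter as a random block over arrays (Mmp3, -3.14 with adjusted p = 0.0438, and Timp3, 1.15 with 0.0192, in limma) and 1 with slide as a random block (Timp3, 1.28 with 0.00636). These fits treat arrays of the same extracts as observations, and over all probes they gave 341 and 717 calls in place of 0.

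A 2-fold change and an unadjusted p under 0.05 were reached by 2 member probes, against 1 with no filter on dim probes, 0 with no replicate block, 0 with the methods' t-test, 1 to 2 when a litter was left out and 3 under the random litter block, where Mmp2 was added. At an unadjusted p under 0.05 were 3, against 0 with no replicate block, 0 with the methods' t-test and 2 to 4 when a litter was left out. Under 4 further settings it was 2. The limma p of Mmp11 was 0.0666 with the processed signals, 0.0664 with the value table, 0.0517 with median centring and 0.0515 under the random litter block, and that of Mmp3 was 0.0682 with no filter on dim probes. Leaving out a litter gave 0 to 0 adjusted calls. The pairing within arrays and litters was dropped in the fit with no replicate block, where Mmp3 had an unadjusted p of 0.119 and Timp3 of 0.0703 in limma. Mmp13 and Timp2 changed sign when Feature Extraction's own signals (-0.043 and 0.0059) or the value table (-0.042 and 0.0058) were used, and a random slide block gave -0.35 for Mmp13. With single litters left out, Mmp10 spanned -0.23 (without litter 121) to 0.75, Mmp13 -0.81 (without litter 116) to 0.997, the second Mmp14 probe -0.37 to 0.50 (without litter 121), the Timp1 probes -0.44 to 0.12 and -0.41 to 0.10 (without litter 121), and Timp2 -0.37 to 0.26 (without litter 116). The cause was not tested.

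Across the array, limma gave 1549 probes at an unadjusted p under 0.05, of which 189 changed by 2-fold or more. The smaller count was 305 when the normexp offset was 16, 546 and 545 by the processed signals and the value table, 112 with no replicate block, 413 and 441 with litter and slide as random blocks, 352 and 373 without litters 112 and 121, and 71 with the methods' t-test. The larger count was 2623 with no filter, 554 with no replicate block, and 2999 and 4029 with the random blocks. No probe passed the adjusted threshold by the methods' t-test, which gave 1347 at an unadjusted p under 0.05. Probes near background (Mmp9 throughout, Mmp10 and Mmp13 in litter 112, and Mmp13 in the Lats2-/- extract of litter 121) limit what these arrays can show.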
